A study of Mus musculus with 34 samples.

Results

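Amino acid and peptide transporters were followed through 8 groups of mouse muscle and liver arrays. The members were all genes of the Slc1, Slc3, Slc6, Slc7, Slc15, Slc36, Slc38 and Slc43 families that had a probe set with a single symbol in the platform annotation. There were 48 such genes, read by 73 of the 22690 probe sets, out of 12394 genes with a probe set of this kind. Each gene was read by its brightest probe set over all 34 arrays. The array held no Slc36 gene under this rule, and Slc43a3 was the one Slc43 gene. In 34 genes a single probe set was available and in 14 there were several.

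These carriers move amino acids, small peptides and related molecules such as creatine, taurine and betaine across cell membranes. In skeletal muscle, sodium-coupled Slc38 carriers and the heterodimeric exchangers, which pair an Slc7 light chain with an Slc3 heavy chain, set the supply of glutamine and of the essential amino acids that mTORC1 senses. Hepatocytes use other members of the same families to take up glutamine, alanine, arginine and glutamate from the portal blood.

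The mice either lacked muscle glycogen synthase or overexpressed it. This enzyme, encoded by Gys1, joins glucose units into glycogen in muscle. Knockout mice (MGSKO in the labels) and wild-type mice of 3 months gave anterior tibialis (4 and 4 arrays), medial gastrocnemius (3 and 5) and liver (4 and 4). Mice of the GSL30 line, which carries extra muscle glycogen synthase, and wild-type mice of 8 months gave medial gastrocnemius (5 and 5). The labels of the tibialis arrays state the strain as C57BL6/129SV. Per the labels, liver targets started from more RNA (10 µg) than muscle targets (5 µg). The labels do not name the promoter of the GSL30 transgene or the disrupted part of Gys1. Whether the arrays of a group stand for different animals is not stated, so p-values measure the spread between these arrays, which may be technical.

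All values are intensities on the linear scale that the authors deposited, and levels are given as mean ± SD. Fold changes are differences of log2(intensity + 50), SE is their standard error in limma, and low genes are understated on this scale. In each comparison the dimmest 40% of probe sets by mean log2 value were not tested, which left 13576. A gene was called when limma's adjusted p (Benjamini-Hochberg over those 13576) was under 0.05. Levels are compared between groups for 1 probe set at a time, never between probe sets.

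The brighter Gys1 probe set read 34.2 to 72.5 in knockout tibialis, against 9271 ± 772 in wild-type tibialis (n = 4 each), and 96.7 ± 59.3 in knockout gastrocnemius (n = 3), against 5033 ± 948 in wild type (n = 5). It read 9115 ± 935 in GSL30 gastrocnemius, against 6285 ± 553 in wild type (n = 5 each), a log2 fold change of 0.53 with a limma adjusted p of 0.0247. These levels matched the labels of all muscle groups, and Gys1 was too dim to test in liver. Array medians ran from 296.35 to 440.3 and correlations between arrays of a comparison from 0.897 to 0.98. Gastrocnemius arrays also carried liver transcripts. The summed intensity of 11 hepatocyte markers was 58650 to 177690 in knockout gastrocnemius and 61686 to 790660 in wild-type gastrocnemius of 3 months, with 8997 to 16163 in GSL30 and 15870 to 39356 in wild type of 8 months. Tibialis arrays had 2722 to 4506 in knockout and 2585 to 4461 in wild type. Liver arrays had 505020 to 658840 in knockout and 533090 to 586640 in wild type. The wild-type gastrocnemius array 2 of 3 months stood apart, with the highest hepatocyte sum, above every liver array. Its fast fibre marker sum was 1703300, where knockout gastrocnemius had 496570 to 559940.

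Among the 48 genes, 16 were too dim to test in any mutant comparison, and 2 were called in a mutant. Slc38a10 was higher in knockout tibialis (1 of 24 tested, against 1.4% of all probe sets). Slc15a2 was lower in GSL30 gastrocnemius (1 of 23 tested, against 4.31%), a share near that of all probe sets. Slc38a10 belongs to the sodium-coupled neutral amino acid carriers. Slc15a2 is the high-affinity proton-coupled carrier of di- and tripeptides, best known from kidney and brain. Promoter windows are shown for these 2 genes because they were the ones called. Each window runs from 250 bases before to 50 bases after the annotated start and is written 5′ to 3′ on the gene's strand, from RefSeq on GRCm38.p6. Capitals mark CCGCCC (a GC box) and CCAAT, searched on both strands as CCGCCC or GGGCGG and CCAAT or ATTGG. The first window is chr11:120151302-120151601 and the second chr16:36784913-36785212, both on the minus strand.
Slc38a10: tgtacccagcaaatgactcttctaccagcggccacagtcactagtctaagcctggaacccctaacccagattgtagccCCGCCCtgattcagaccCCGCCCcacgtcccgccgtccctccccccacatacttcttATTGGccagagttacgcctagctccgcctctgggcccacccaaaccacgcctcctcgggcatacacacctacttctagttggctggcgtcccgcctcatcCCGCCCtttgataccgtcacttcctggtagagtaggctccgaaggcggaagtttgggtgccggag
Slc15a2: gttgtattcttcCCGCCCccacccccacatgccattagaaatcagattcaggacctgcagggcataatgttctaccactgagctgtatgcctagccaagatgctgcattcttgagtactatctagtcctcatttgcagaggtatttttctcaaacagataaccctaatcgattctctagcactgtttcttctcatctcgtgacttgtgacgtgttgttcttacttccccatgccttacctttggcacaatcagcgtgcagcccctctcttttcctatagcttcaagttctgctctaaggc

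The Slc38a10 window held 3 GC boxes and 1 CCAAT match, and its G and C content was 60.3% with 17 CpG sites. The Slc15a2 window held 1 GC box and no CCAAT match, with a G and C content of 46.3% and 5 CpG sites. Over all 32851 windows in the RefSeq table the median was 52.7% with 7 CpG sites, 35.7% held a GC box and 37.4% held CCAAT. RefSeq windows were matched for 32 of the 48 genes (51 windows). Of these member windows, 51% held a GC box and 21.6% held CCAAT. The amino acid response motif TGATGNAA (or TTNCATCA on the other strand) was in 5 member windows, of Slc1a4, Slc7a7, Slc7a11 and Slc15a5, and in 3.97% of all windows. The E-box CACGTG was in 3 member windows, of Slc1a6, Slc6a3 and Slc38a5, and in 7.15% of all windows. Neither the Slc38a10 nor the Slc15a2 window held either motif.

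Of the 48 genes, 17 were bright enough to be tested in all 4 mutant comparisons, 15 in 1 to 3 of them and 16 in none. Group means of the 16 genes never tested ran from 10.8 to 292.4. They include Slc7a11, the light chain of the cystine and glutamate exchanger, Slc7a1, the widely used arginine and lysine carrier, Slc1a4, Slc15a1 and Slc38a5. Genes that passed the filter are therefore not all members, and a gene bright in 1 group had an easier passage.

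**Figure D1:**
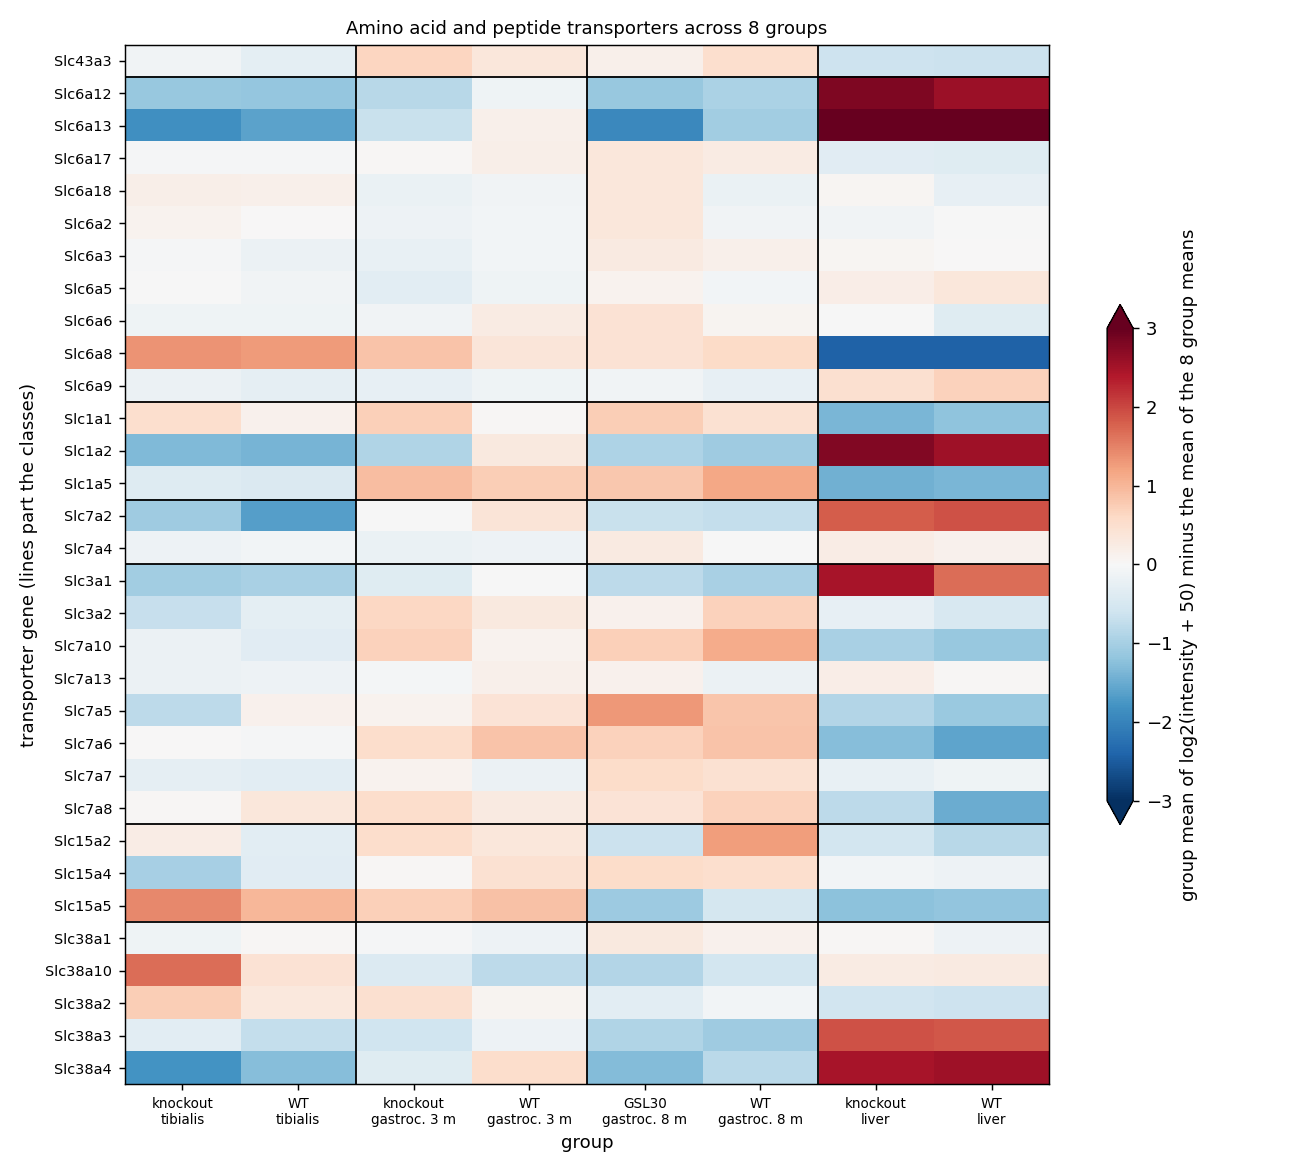
Group means of log2(intensity + 50) for the 32 transporters tested in at least 1 mutant comparison, each row centred on the mean of its 8 group means, with mutant columns left of their wild type. Rows are parted by class and columns by comparison. Liver separates from muscle in Slc1a2, Slc3a1, Slc6a8, Slc6a12, Slc6a13, Slc7a2, Slc38a3 and Slc38a4, while mutant and wild-type columns of a pair differ most in Slc38a10 (knockout tibialis) and Slc15a2 (GSL30).

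In knockout tibialis, Slc38a10 was the 1 transporter called of 24 tested, against 1.4% of all probe sets called in this comparison. Of all calls here 47.4% were higher in knockout, or 31.9% after scaling to a common median. Its brightest probe set (1456241_a_at) read 8281.5, 6981.6, 8286 and 8111.5 in knockout tibialis, against 3588.4, 3202.2, 3754.2 and 2876.8 in wild-type tibialis. Every knockout array lay above every wild-type array, and the lowest knockout array was clear of the others of its group. Slc38a10 rose to 7915 ± 628 in knockout tibialis, against 3355 ± 394 in wild type (n = 4 each), a log2 fold change of 1.23 with SE 0.12 and a limma adjusted p of 0.00143.

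A total of 7 probe sets read Slc38a10, and 3 of them were called higher in knockout tibialis. Probe set 1427294_a_at read 6074, 6331, 6346.9 and 5900.6 in knockout tibialis, against 1648.4, 2478.5, 1934.4 and 1970.2 in wild type. Its log2 fold change was 1.61 with SE 0.13 and a limma adjusted p of 6.20e-04. Probe set 1427295_at read 4352.2, 4228.4, 4957.6 and 4410.7 in knockout tibialis, against 1649.6, 1622.9, 1455 and 1605.6 in wild type, a log2 fold change of 1.47 with SE 0.10 and a limma adjusted p of 2.36e-04. Neither pair of groups overlapped. The 3 other testable probe sets had positive differences with overlapping groups and were not called, with log2 fold changes of 0.98, 0.94 and 0.36 and limma adjusted p of 0.259, 0.303 and 0.582. The seventh, 1434616_at, was too dim to test. The plot of Slc38a10 by array shows the 3 called probe sets. The call of the brightest probe set was kept in all 8 fits that left out 1 array, with log2 fold changes from 1.16 to 1.29 and limma adjusted p from 0.00477 to 0.00929.

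**Figure D2:**
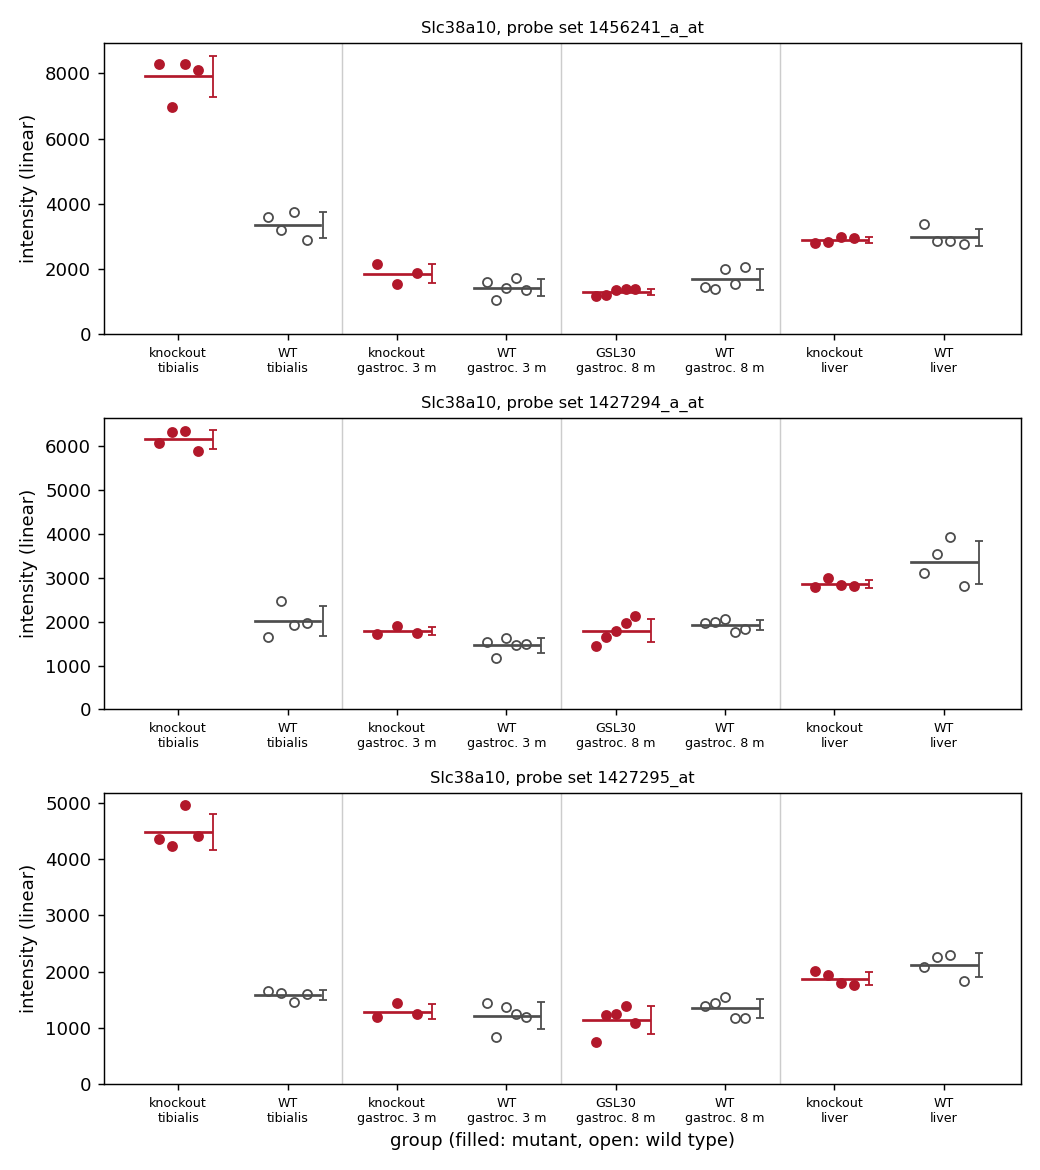
Slc38a10 intensity on the linear scale in each array for the 3 probe sets called in knockout tibialis, with filled points for mutant and open points for wild-type arrays. Horizontal lines are group means and bars are ± SD. In each panel the 4 knockout tibialis arrays lie above all other arrays.

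Among the other Slc38 carriers, Slc38a3, which carries glutamine, histidine and asparagine, read 3764, 3940.8, 3744.2 and 3784.7 in knockout tibialis, against 2722.4, 3329.8, 2651.4 and 2858.5 in wild type. The groups did not overlap, but Slc38a3 was not called (log2 fold change 0.40, SE 0.11, limma adjusted p 0.122). Slc38a2, the amino acid-regulated carrier of small neutral amino acids, spread from 4677 to 9616.9 in knockout and from 3288.4 to 5707.3 in wild type and was not called (0.44, limma adjusted p 0.42). Slc38a4 and Slc38a1 had log2 fold changes of -0.51 and -0.17 and were not called either. Thus 1 of the 5 Slc38 genes tested passed.

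Slc15a4, the lysosomal carrier of histidine and peptides, read 612.5, 459.1, 541.5 and 413.7 in knockout tibialis, against 948.6, 888.5, 839.7 and 612.7 in wild type. Every knockout array lay below every wild-type array, though the highest knockout array all but met the lowest wild-type array. Its log2 fold change was -0.64 with SE 0.16 and a limma adjusted p of 0.105. Slc15a4 passed when wild-type array 4 was left out (limma adjusted p 0.0377). Without that array 4 members were called in place of 1, the others being Slc3a2 and Slc7a2 beside Slc38a10 and Slc15a4. Groups did not overlap for 3 of the 24 members tested, against 10.1% of all probe sets.

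The heterodimeric exchangers, the Slc1, Slc6 and cationic carriers gave no call in knockout tibialis. Slc3a2, the heavy chain shared by several Slc7 exchangers, read 1511.1, 1596.8, 1266.9 and 1306.9 in knockout, against 2489.6, 2263.4, 1990 and 1105.6 in wild type. The groups overlapped through wild-type array 4 (log2 fold change -0.40, limma adjusted p 0.444). Slc6a8, the creatine carrier, read 5711.5 to 7068.4 in knockout and 5854.8 to 6619.5 in wild type (0.06, limma adjusted p 0.825). Over the 24 members tested the median log2 fold change was 0.06, beside 0.04 over all probe sets. Of these 24, 6 (25%) had an unadjusted limma p under 0.05, against 15% of all probe sets.

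Marker lists of other cell and fibre types also differed in knockout tibialis. The summed intensity of 9 slow fibre markers was 44086 to 52553 in knockout and 19785 to 26456 in wild type, and Myl3 was the 1 of 9 called (log2 fold change 2.29, limma adjusted p 0.00143). Myl3 alone averaged 27156 in knockout and 5757 in wild type, and of the 9 differences 5 were positive and 4 negative, with a median of 0.10. Endothelial markers summed to 23919 to 27760 in knockout and 18051 to 21383 in wild type, with 11 of 11 differences positive and 0 called by limma. Of 9 fibroblast and tendon markers tested, 1 was called lower, and 7 of 9 differences were negative with a median of -0.33. At an unadjusted p under 0.05 there were 9 endothelial and 5 fibroblast and tendon markers, against 15% of all probe sets. The part of these shifts in the Slc38a10 difference was not tested, and fewer cells of a type cannot be told apart from less RNA per cell in these tissue samples.

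In knockout gastrocnemius no member was called of 23 tested, against 0.147% of all probe sets. At an unadjusted p under 0.05 there were 4 members (Slc6a8, Slc7a10, Slc38a4 and Slc15a4), or 17.4% of those tested, against 11.4% of all probe sets. Groups did not overlap for 0 members, against 9.98% of all probe sets. Slc38a10 read 2144.9, 1556.8 and 1884.8 in knockout gastrocnemius, against 1601.8, 1036.9, 1404.4, 1730.8 and 1352.4 in wild type. Of the 3 knockout arrays 2 lay above every wild-type array and 1 lay among them, and the log2 fold change was 0.38 with SE 0.19 and a limma adjusted p of 0.474. Slc15a2 read 580.6, 636.1 and 1102.5 in knockout, against 838.7, 351.8, 385.9, 617.8 and 1571.1 in wild type, where the arrays spanned the knockout values on both sides (0.18, limma adjusted p 0.886).

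Slc6a8 read 5028.2, 4782.3 and 4129.8 in knockout gastrocnemius, against 2827.6, 2932.1, 3848.3, 2789.2 and 4156 in wild type. One wild-type array reached into the knockout range, and the log2 fold change was 0.50 with SE 0.17 and a limma adjusted p of 0.352. Slc7a10, a light chain that exchanges small neutral amino acids, read 724, 934.8 and 781.2 in knockout, against 503.1, 391.6, 560.7, 411 and 802.8 in wild type (0.60, limma adjusted p 0.376). The log2 fold change of Slc15a4 was -0.42 (limma adjusted p 0.398). Slow fibre markers summed to 86804 to 111480 in knockout gastrocnemius and 41054 to 64884 in wild type, and endothelial markers to 22280 to 23949 in knockout and 14236 to 18093 in wild type. Their part in these values was not tested.

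In the knockout the difference between tissues was tested as the gastrocnemius effect minus the tibialis effect, over 16 arrays. For the brightest Slc38a10 probe set this was -0.85 with SE 0.22 and a limma adjusted p of 0.296, so that 0 of 22 members passed by their brightest probe set, against 0.0147% of all probe sets. At an unadjusted p under 0.05 there were 5 members, or 22.7%, against 10% of all probe sets. The 2 probe sets that passed on the whole array were both of Slc38a10. Their differences were -1.32 for 1427294_a_at (limma adjusted p 0.0340) and -1.37 for 1427295_at (limma adjusted p 0.0411). With 1 array left out the differences stayed between -1.42 and -1.23 and between -1.50 and -1.31, but they passed in 5 and 2 of 16 fits, at limma adjusted p of 0.00349 to 0.14 and 6.94e-04 to 0.152.

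In knockout liver no member was called of 25 tested, against 0.00737% of all probe sets (1 probe set). At an unadjusted p under 0.05 there were 3 members (Slc3a1, Slc6a6 and Slc3a2), or 12%, against 8.33% of all probe sets. Slc38a10 read 2791.6, 2839.2, 2975.1 and 2964.1 in knockout liver, against 3374, 2854.6, 2872.4 and 2771 in wild-type liver. The groups overlapped almost fully (log2 fold change -0.03, SE 0.11, limma adjusted p 0.949). Slc15a2 read 103.6, 461, 623.9 and 335.7 in knockout, against 224.3, 237.6, 285.9 and 291.2 in wild type, with the knockout arrays on both sides of the wild-type range (0.29, limma adjusted p 0.863).

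Groups did not overlap for 3 members in liver, against 5.17% of all probe sets. Slc6a6, the taurine carrier, read 888.6, 860.8, 920.4 and 865.4 in knockout liver, against 641.9, 761.6, 559.6 and 783 in wild type (log2 fold change 0.35, SE 0.12, limma adjusted p 0.482). Slc3a2 read 2100.3, 1759.5, 1923.2 and 2133.8 in knockout, against 1505.5, 1735.3, 1751.6 and 1605 in wild type (0.25, SE 0.11, limma adjusted p 0.584). Slc6a9, a glycine carrier, read 1402.6, 1911.5, 1977.4 and 1988 in knockout, against 2094.7, 2341.8, 2019.5 and 1990.2 in wild type (-0.22, limma adjusted p 0.702). None of these passed the test, and for Slc6a9 the highest knockout array all but met the lowest wild-type array. Slc3a1, the heavy chain of the cystine and dibasic amino acid exchanger, read 2845.4, 1468.5, 1961 and 2306.6 in knockout liver, against 1414.7, 1086.3, 1566.1 and 793 in wild type, with 1 knockout array inside the wild-type range. Its log2 fold change was 0.80 with SE 0.24 and a limma adjusted p of 0.43. Carriers that were higher in wild-type liver than in tibialis had log2 fold changes of -0.07 for Slc38a4, 0.04 for Slc38a3 and 0.13 for Slc6a13 in knockout liver, none called.

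The knockout effect in liver minus that in tibialis was lower for Slc38a10 alone of 22 members, against 0.744% of all probe sets. The difference was -1.26 with SE 0.15 and a limma adjusted p of 7.12e-04 for the brightest probe set, -1.82 for 1427294_a_at and -1.64 for 1427295_at. All 3 passed in each of the 16 fits that left out 1 array. Tissue, experiment and the starting amount of RNA differ together here and cannot be told apart.

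In GSL30 gastrocnemius, Slc15a2 was the 1 member called of 23 tested, against 4.31% of all probe sets. It read 327.5, 190.8, 257.9, 567.2 and 280.1 in GSL30 arrays, against 1044.2, 952, 947.1, 2043.8 and 1613.2 in wild type of 8 months. The highest GSL30 array lay below the lowest wild-type array. Slc15a2 fell to 325 ± 144 in GSL30 gastrocnemius, against 1320 ± 490 in wild type (n = 5 each), a log2 fold change of -1.88 with SE 0.27 and a limma adjusted p of 0.00567. Its second probe set, 1424730_a_at, was too dim to test and read 119.1 to 258.1 in GSL30 and 103.8 to 268.5 in wild type.

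The Slc15a2 call was kept in all 10 fits that left out 1 array, with log2 fold changes from -2.08 to -1.71. With the hepatocyte marker mean as a covariate the log2 fold change was -2.15 and the call was lost (limma adjusted p 0.123). In that fit 0 of all 13576 probe sets passed. The covariate ran from 8.06 to 9.12 in GSL30 and from 9.20 to 10.9 in wild type, without overlap. That fit therefore cannot separate hepatocyte level from genotype, and the loss of the call decides nothing. With the 2 wild-type arrays of high hepatocyte level left out the call held. Wild-type arrays of Slc15a2 were themselves spread, from 140.9 to 950.8 in tibialis and from 351.8 to 1571.1 in gastrocnemius of 3 months.

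**Figure D3:**
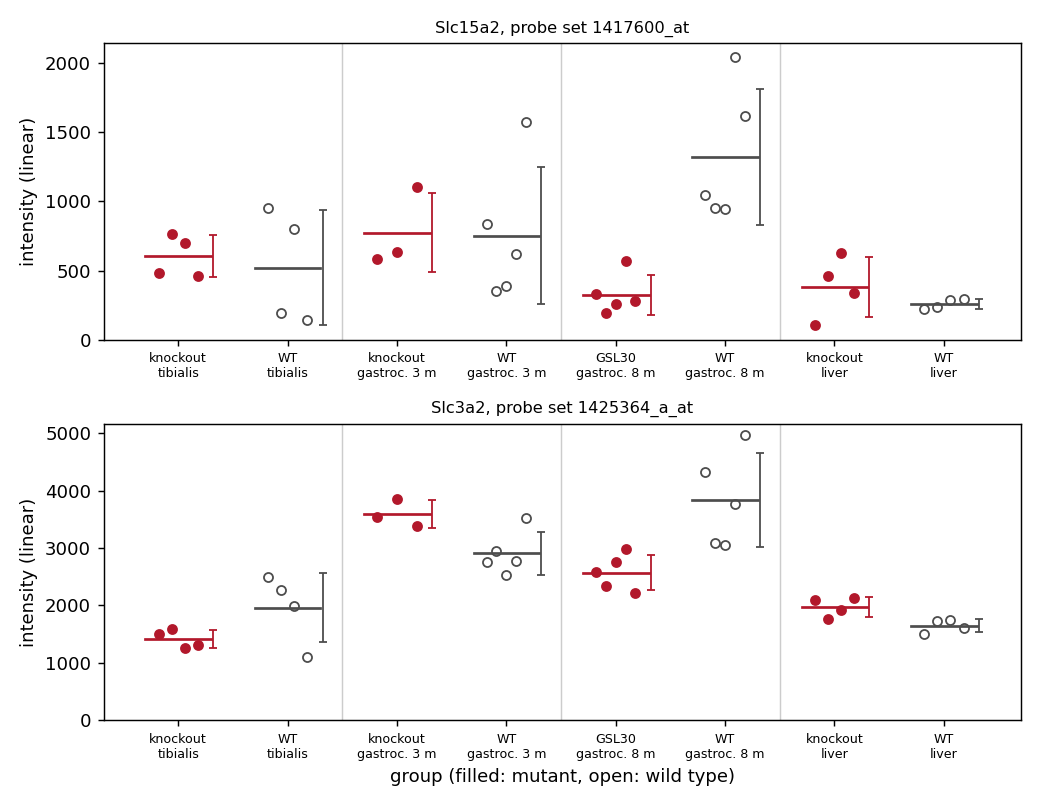
Intensity on the linear scale of Slc15a2 and Slc3a2 in each array, with filled points for mutant and open points for wild-type arrays, lines for group means and bars for ± SD. In gastrocnemius of 8 months the 5 GSL30 arrays lie below the 5 wild-type arrays for both genes, while Slc15a2 spreads widely among wild-type arrays of tibialis and 3-month gastrocnemius.

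Slc3a2 read 2576.3, 2338.3, 2750.3, 2979.3 and 2215.6 in GSL30 gastrocnemius, against 4320.6, 3082, 3049.9, 3759.3 and 4968.3 in wild type. The groups did not overlap, and Slc3a2 missed the threshold with a log2 fold change of -0.55, SE 0.15 and a limma adjusted p of 0.0624. It passed under 4 of 10 other settings (limma adjusted p 0.0237 to 0.222 over the 10). The light chains that could be tested beside it were not called: Slc7a5, the large neutral amino acid carrier, had a log2 fold change of 0.47 (limma adjusted p 0.241), Slc7a10 of -0.40 (0.18), Slc7a8 of -0.27 (0.328), Slc7a6 of -0.16 (0.494) and Slc7a7 of 0.10 (0.66).

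Slc38a10 read 1188.3, 1219.1, 1365.6, 1381.6 and 1377 in GSL30 gastrocnemius, against 1442.9, 1400.6, 1989, 1537.9 and 2073 in wild type. The groups did not overlap by a narrow margin, and it was not called (log2 fold change -0.34, SE 0.13, limma adjusted p 0.168). Groups did not overlap for 3 members, against 7.38% of all probe sets. No Slc6, Slc1, cationic or Slc43 carrier passed in GSL30, where Slc6a8 had -0.13, Slc1a5, an exchanger of glutamine and other neutral amino acids, -0.33, and Slc43a3 -0.35. The median log2 fold change of the 23 members tested was 0.04, beside 0.03 over all probe sets. Of these 23, 5 (21.7%) had an unadjusted limma p under 0.05, against 21.4% of all probe sets.

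Several marker lists held genes called lower in GSL30 gastrocnemius. Of slow fibre markers 7 of 9 were called lower, with sums of 28928 to 46376 in GSL30 and 58324 to 68488 in wild type. Of endothelial markers 4 of 11 were called lower (14691 to 17043 in GSL30, 21534 to 24105 in wild type), of fibroblast and tendon markers 3 of 9 and of hepatocyte markers 3 of 8. Genes of the smooth muscle list were split, with 3 of 6 called lower and 1 (Des) higher, and their median log2 fold change was -0.09. Their sum was 45348 to 63904 in GSL30 and 37180 to 42776 in wild type. Schwann cell markers gave 0 of 4 by limma (2 at an unadjusted p under 0.05, against 21.4% of all probe sets). The part of these shifts in the Slc15a2 and Slc3a2 values was not tested, apart from the hepatocyte settings above. In the covariate fit among them, hepatocyte level and genotype cannot be told apart.

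The GSL30 effect at 8 months minus the knockout effect at 3 months was tested within gastrocnemius over 18 arrays. It was called for 2 of 22 members, against 2.3% of all probe sets. For Slc15a2 the difference was -2.06 with SE 0.53 (limma adjusted p 0.0475), and for Slc3a2 it was -0.86 with SE 0.21 (limma adjusted p 0.0388). The log2 fold changes behind the Slc3a2 difference were -0.55 in GSL30 and 0.31 in the knockout. Both calls lie near the threshold. With 1 array left out the differences stayed between -2.36 and -1.79 for Slc15a2 and between -0.93 and -0.76 for Slc3a2, but Slc15a2 passed in 3 and Slc3a2 in 5 of 18 fits (limma adjusted p up to 0.135 and 0.0998). Age and experiment change with the genotype in this difference and cannot be told apart from it.

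**Figure D4:**
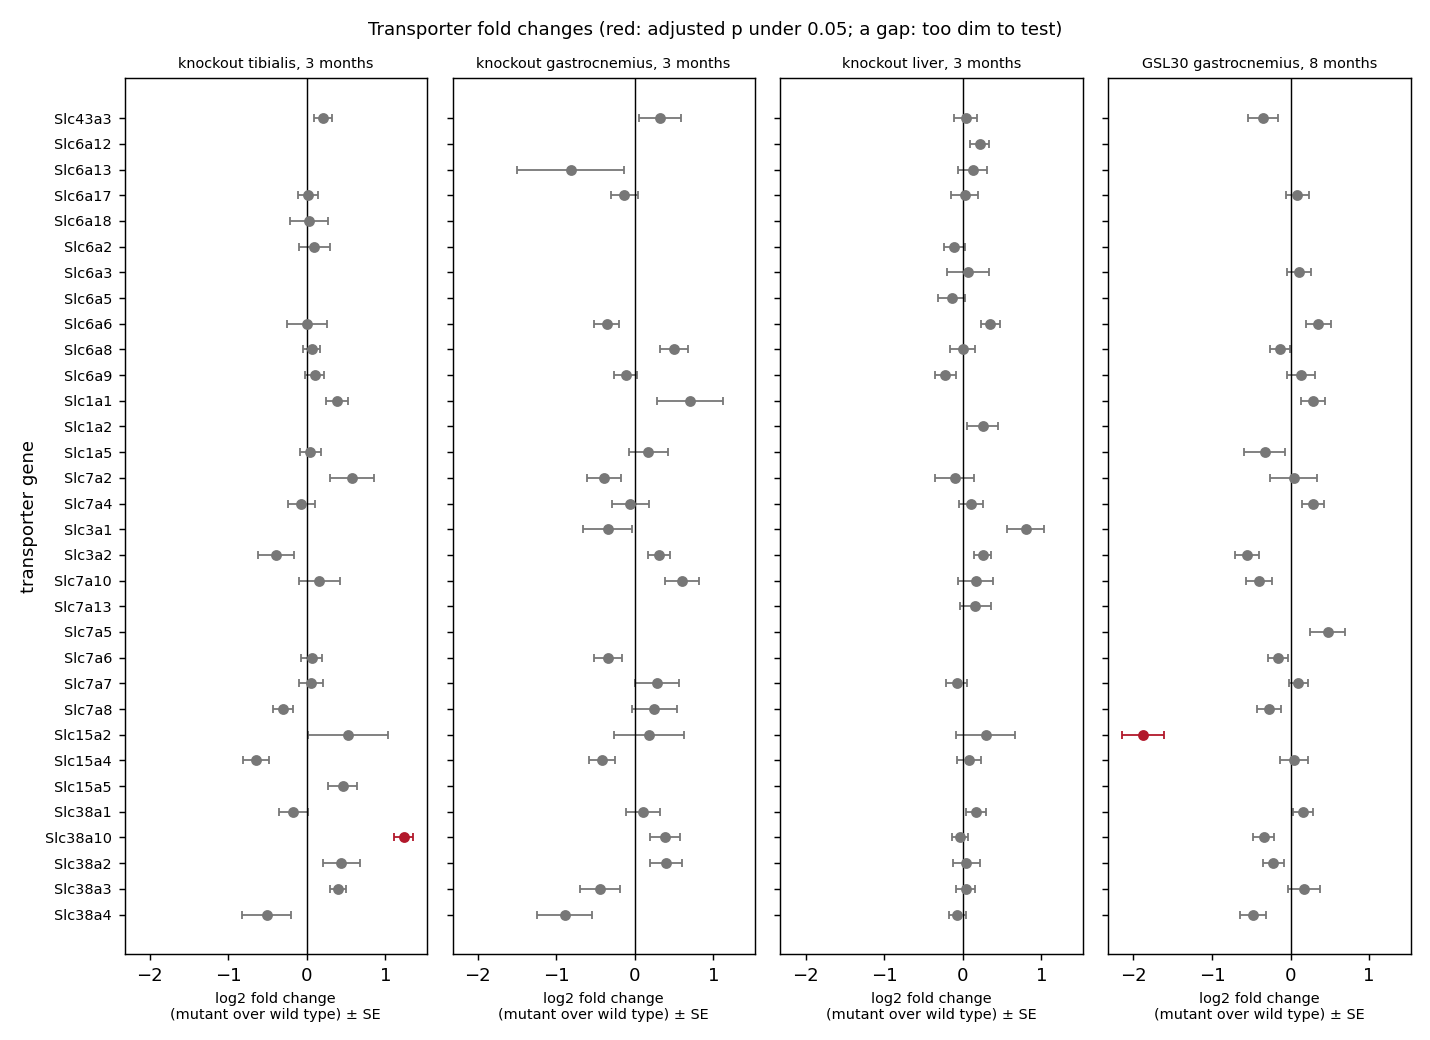
Log2 fold change (mutant over wild type) of each transporter bright enough to test in the 4 mutant comparisons, with bars for ± SE and a gap where a gene was too dim. Red marks a limma adjusted p under 0.05, which holds for Slc38a10 in knockout tibialis (1.23) and Slc15a2 in GSL30 gastrocnemius (-1.88).

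Over the 8 groups, Slc38a10 was brightest in knockout tibialis (7915), followed by wild-type tibialis (3355), wild-type liver (2968), knockout liver (2893), knockout gastrocnemius (1862), wild-type gastrocnemius of 8 months (1689) and of 3 months (1425) and GSL30 gastrocnemius (1306). The ranges of neighbouring groups overlapped in this order except between the first and second groups and between knockout liver and knockout gastrocnemius. Slc15a2 had the order wild-type gastrocnemius of 8 months (1320), knockout gastrocnemius (773), wild-type gastrocnemius of 3 months (753), knockout tibialis (603), wild-type tibialis (522), knockout liver (381), GSL30 gastrocnemius (325) and wild-type liver (260). All neighbours in that order overlapped. Levels set across the 4 experiments rest on the authors' scaling of each array to one trimmed mean.

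Wild-type liver was set against wild-type tibialis to place the members by tissue, and 13 of 22 members tested differed. Of these, 8 were higher in liver, against 28.2% of all probe sets, and 5 were lower, against 41.1%. In shares this is 36.4% and 22.7% of the members, or 59.1% called against 69.4% of all probe sets. The dim filter bears on this split: without it 20 members were called, 10 higher and 10 lower in liver. The 8 that came in were Slc15a3 and Slc6a5, higher in liver, and Slc1a1, Slc1a3, Slc7a5, Slc7a6, Slc7a8 and Slc15a5, lower, all named after their values were seen. Tissue, experiment and RNA amount cannot be told apart in it.

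Higher in liver were the 2 Slc38 carriers best known from hepatocytes. Slc38a4 read 25800 ± 1551 in wild-type liver, against 1871 ± 684 in wild-type tibialis (n = 4 each; log2 fold change 3.82, SE 0.24, limma adjusted p 1.49e-07). Slc38a3 read 17519 ± 711 in liver, against 2891 ± 305 in tibialis (2.58, limma adjusted p 1.04e-08). The Slc6 carriers Slc6a13 and Slc6a12, which take up taurine, betaine and gamma-aminobutyric acid, had log2 fold changes of 5.01 and 3.74, and Slc6a9 of 0.96. Slc1a2, a glutamate carrier, had 3.93, Slc7a2, a carrier of arginine and lysine, 3.56, and Slc3a1 2.65. Tibialis means of Slc1a2, Slc6a12, Slc6a13 and Slc3a1 were 26.5, 28.5, 95.7 and 155, under the dim limit of 227.31 in this comparison. Their folds therefore depend on the added 50. These genes passed the filter only through their liver arrays, so the filter favoured the difference that was then tested. Slc1a2 and Slc6a12 were bright enough to test in 4 of 8 fits that left out 1 array. For Slc3a1 the log2 fold change was 3.05 with 1 added and 1.98 with 200 added.

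Slc6a8 was lower in liver, at 441 ± 86.8, against 6240 ± 338 in tibialis (log2 fold change -3.70, SE 0.15, limma adjusted p 4.95e-09). Slc1a5 and Slc38a2 both had -0.93, Slc7a10 had -0.81 and Slc43a3, a carrier of purine nucleobases, -0.35. The Slc43a3 call was lost under 4 of 8 other settings. Slc38a10 did not pass by its brightest probe set (-0.17, limma adjusted p 0.25), but 4 of its other probe sets were called higher in liver, among them 1427294_a_at (0.73) and 1427295_at (0.41), so its probe sets disagree between tissues. Slc15a2, Slc15a4 and Slc3a2 did not pass.

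Of the 8 members higher in liver, 6 were bright enough to test in knockout gastrocnemius, and all 6 had negative differences there without a call. The hepatocyte markers were also negative there, 11 of 11 with 0 called by limma (0 at an unadjusted p under 0.05), with a median log2 fold change of -1.40. In GSL30 gastrocnemius the 2 sets went apart. Of the 8 members 4 could be tested there, and 1 was negative (Slc38a4, -0.48). Of the hepatocyte markers 8 of 8 tested were negative in GSL30, with a median of -1.47 and 3 called lower. Slc38a4 read 3324.7, 4159.9 and 2803.8 in knockout gastrocnemius, against 6973.5, 9372.3, 4599.9, 9827.1 and 3414.8 in wild type of 3 months. The wild-type arrays with the most hepatocyte signal were the brightest for Slc38a4, and 2 of 3 knockout arrays lay under every wild-type array. Its log2 fold change was -0.89 (limma adjusted p 0.398), -0.44 with the hepatocyte mean as a covariate and -0.21 with the 4 arrays of high hepatocyte level left out. Those 4 were wild-type arrays 1, 2 and 4 and knockout array 1, which left 2 arrays in each group. Slc6a13 had -0.82 and turned to 0.15 with the covariate, and it was too dim to test without those 4 arrays. Slc38a3 had -0.44, kept -0.23 with the covariate and turned to 0.14 without those 4 arrays. Of the 6 members, 4 stayed negative with the covariate. Without those 4 arrays 2 were negative, and Slc3a1 and Slc6a13 could not be tested. Slc7a2 had -0.39 and kept -0.44 and -0.41.

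**Figure D5:**
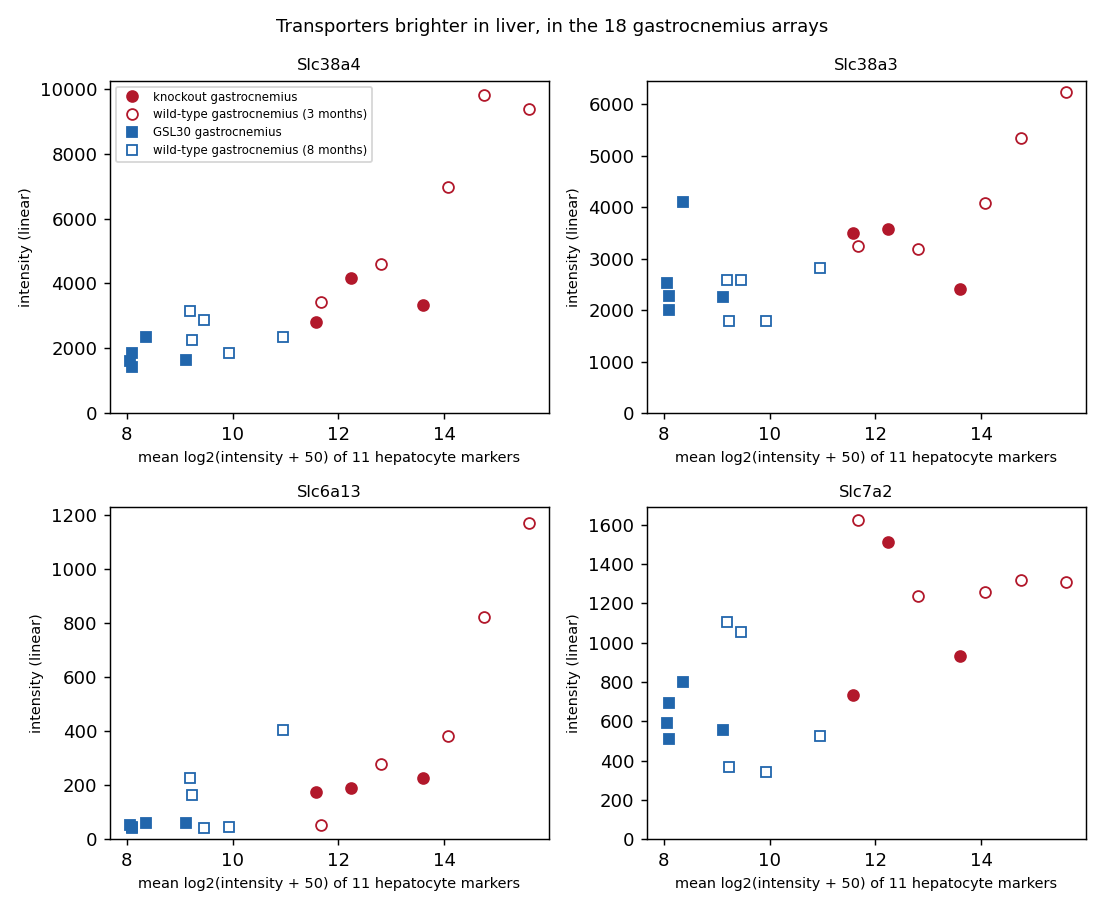
Intensity on the linear scale of 4 transporters that were higher in liver than in tibialis, against the mean log2(intensity + 50) of 11 hepatocyte markers, in the 18 gastrocnemius arrays. Each point is 1 array, filled for mutant and open for wild type. Slc38a4 and Slc6a13 are brightest in the 3-month wild-type arrays with the highest hepatocyte mean, while Slc7a2 shows no such order among the 3-month arrays.

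Genes around the carriers were described from 4 lists. In the mTORC1 and amino acid sensing list 1 of 23 genes tested was called in knockout tibialis and 2 of 23 in GSL30 gastrocnemius, all higher, against 1.4% and 4.31% of all probe sets called in either direction. Mtor, the kinase itself, rose to 2359 ± 203 in knockout tibialis, against 1371 ± 195 in wild type (n = 4 each; log2 fold change 0.77, limma adjusted p 0.0210). Tsc2, an inhibitor of the pathway, rose to 3492 ± 440 in GSL30, against 1884 ± 243 in wild type (n = 5 each; 0.87, limma adjusted p 0.00636), and Lamtor1, a lysosomal anchor of the sensing complex, rose by 0.45 (limma adjusted p 0.0480).

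Of enzymes of glutamine, glutamate and aspartate, 1 of 12 was called in knockout tibialis and 2 of 13 in GSL30, all lower, against the same 1.4% and 4.31%. Glul, glutamine synthetase, fell to 2242 ± 72.7 in knockout tibialis, against 3917 ± 777 in wild type (log2 fold change -0.77, limma adjusted p 0.0380). Got1, the cytosolic aspartate aminotransferase, had -0.74 in GSL30 (limma adjusted p 0.0223), and Asns, asparagine synthetase, had -0.66 (limma adjusted p 0.0229). Asns was also the 1 gene called of 23 in the ATF4-responsive list in GSL30 (4.31% of all probe sets). In knockout tibialis that list had 0 of 22 called by limma, 18 of 22 negative and a median of -0.19. At an unadjusted p under 0.05 it had 7 of the 22, against 15% of all probe sets. Of carriers outside the 8 families 1 of 6 was called in GSL30 (4.31% of all probe sets), the mitochondrial glutamate carrier Slc25a22 (-0.65, limma adjusted p 0.0439). None of the 4 lists had a call by limma in knockout gastrocnemius or knockout liver. At an unadjusted p under 0.05 there were 13 of 65 and 9 of 68 list entries, against 11.4% and 8.33% of all probe sets.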

How the data were processed

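Intensities of 34 arrays (22690 probe sets, 64 of them controls) were used as the authors deposited them. Per the values in the deposited table, each array is scaled to a 2% trimmed mean near 1000 (999.894 to 1000.53). No source used here names the summary software. Of the probe sets, 20393 have 1 symbol in the platform annotation, 691 several and 1606 none.

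The deposited intensities were taken to log2 after adding 50. Controls and the dimmest 40% of probe sets in a comparison were left out (limits of 203.84 to 255.92). Groups followed the labels. Each mutant was fitted against its own wild type with limma 3.58.1 (lmFit and eBayes, R 4.3.3), with differences of effects as interaction terms, and p-values were adjusted by Benjamini-Hochberg. The number of arrays limits the precision. Simulated data held 200 changed probe sets per comparison, some changed more than 2-fold, drawn from the brighter probe sets with independent noise. In them 62% to 83% of 2-fold changes were recovered in the comparisons of groups. For differences of effects this was 34% in gastrocnemius minus tibialis, 60% in liver minus tibialis and 53% in GSL30 minus knockout. The real fits of knockout gastrocnemius and knockout liver had 20 calls and 1 call, so these shares do not give their power.

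Named genes are Slc38a10, Slc15a2, every member called in any comparison and, per mutant comparison, members with separate groups and the largest fold changes. Others were chosen after their values were seen. The members and lists were chosen with earlier results of these data known. Alternatives covered normalization, pseudocount, filter, fit, liver transcripts and single arrays.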

Additional observations from a re-analysis of the deposited data

Results flagged for a closer look

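In 126 groups of 4 to 5 arrays (18 genes), 7 had 1 array far from the others, where chance gives about 1 in 20 (6.3). Slc38a10 read 6981.6 in knockout tibialis array 2, against 8111.5 to 8286 in the other knockout arrays. Slc6a13 read 138.3 in knockout tibialis array 4 (others 40.1 to 42) and 232.7 in wild-type tibialis array 4 (others 40.8 to 59.2). In knockout liver array 1, Slc6a9 read 1402.6 (others 1911.5 to 1988) and Slc7a2 read 2045.5 (others 4358.7 to 4606.4). Slc7a2 read 1623.8 in wild-type gastrocnemius array 5 of 3 months (others 1236.3 to 1317.7). Slc1a2 read 212.2 in GSL30 gastrocnemius array 5 (others 23.9 to 45.5).

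A test of the difference between effects made a call for 3 genes. For Slc38a10 the knockout effect in gastrocnemius minus that in tibialis was -1.32 and -1.37 on the log2 scale by 2 probe sets (0.0147% of all probe sets called). They passed in 5 and 2 of 16 fits with 1 array left out, and the brightest probe set did not pass (limma adjusted p 0.296). In liver minus tibialis the Slc38a10 difference was -1.82, -1.64 and -1.26 by 3 probe sets (0.744% called). The GSL30 effect at 8 months minus the knockout effect at 3 months in gastrocnemius was -2.06 for Slc15a2 and -0.86 for Slc3a2 (2.3% called). These passed in 3 and 5 of 18 fits with 1 array left out, and age and experiment change with the genotype.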

How the results depend on the processing

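The Slc38a10 call in knockout tibialis held in all 8 other settings (log2 fold change 1.14 to 1.27), and the Slc15a2 call in GSL30 in 9 of 10. Members called in knockout tibialis numbered 2 in place of 1 with all 34 arrays in 1 fit. In GSL30 they numbered 2 with a pseudocount of 200, all 34 arrays, a 60th-percentile filter or a trended and robust fit. With the hepatocyte covariate, which did not overlap between GSL30 and wild type, they numbered 0. In liver over tibialis they numbered 20 without the filter (more genes tested) and 8 with the 60th percentile (fewer). In gastrocnemius minus tibialis 1 passed when any probe set counted. For GSL30 minus knockout 0 passed without the filter or without the high-hepatocyte arrays. The hepatocyte covariate reversed Slc15a2 in knockout gastrocnemius (-0.27). Other causes were not tested.

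With 1 array left out, members called ranged from 1 to 4 in knockout tibialis, 10 to 14 in liver over tibialis, 1 to 2 in liver minus tibialis and 0 to 3 in GSL30 minus knockout, with 0 in knockout gastrocnemius and liver. Slc15a2 ranged from -0.091 to 0.48 in knockout gastrocnemius, -0.73 to 0.068 in gastrocnemius minus tibialis and -0.61 to 0.21 in liver minus tibialis, and Slc38a10 from -0.064 to 0.029 in knockout liver. No paired analysis was possible because the labels number arrays through both groups of an experiment, so that equal numbers link no arrays. Whether different tissues came from the same mice is not known here. The differences of effects between tissues treat all arrays as independent, which bears on their SE and p-values.

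Over all probe sets, calls ranged over the other settings from 96 to 321 in knockout tibialis (190 as reported), 4 to 306 in knockout gastrocnemius (20), 1 to 32 in knockout liver (1), 0 to 1093 in GSL30 (585), 0 to 6 in gastrocnemius minus tibialis (2), 67 to 156 in liver minus tibialis (101) and 55 to 710 in GSL30 minus knockout (312). With 1 array left out they ranged from 63 (without knockout array 2) to 300 (without wild-type array 4) in knockout tibialis, 7 to 25 in knockout gastrocnemius, 1 to 8 in knockout liver, 182 (without GSL30 array 2) to 772 (without GSL30 array 4) in GSL30, 0 to 7 in gastrocnemius minus tibialis, 48 to 205 in liver minus tibialis and 152 to 448 in GSL30 minus knockout. The shares of all probe sets beside the members' counts rest on these calls. Scaling to a common median changed the share of calls that were higher to 31.9%, against 47.4% as reported, in knockout tibialis, and to 10%, against 30%, in knockout gastrocnemius. It moved the median log2 difference of all probe sets by over 0.1 in liver over tibialis (-0.01, against -0.18), in gastrocnemius minus tibialis (0.16, against 0.02) and in GSL30 minus knockout (-0.13, against -0.03).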
